A study of Mus musculus with 48 samples.

Results

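The genes described here are 10 non-coding host genes of small nucleolar RNAs (snoRNAs): Gas5, Zfas1, Snhg1, Snhg3, Snhg4, Snhg5, Snhg6, Snhg8, Snhg12 and Snhg15. They were taken by symbol from the deposited table, which lists 55487 genes and held all 10. All 10 passed the filter on low counts among the 12814 genes tested in RNA, the 16217 tested in ribosome footprints and the 16568 tested in the ratio of footprints to RNA. The libraries came from Ba/F3 cells, an interleukin 3 dependent mouse line of pro-B origin, in which CRISPR-Cas9 was used to make clones with ribosomal protein defects. There were 8 genotypes with 3 clones each. Beside WT, 3 lacked 1 copy of a large-subunit gene (Rpl5 +/-, Rpl11 +/- and Rpl22 +/-) and 1 lacked both copies (Rpl22 -/-). The other 3 carried amino acid changes: Rpl10 R98S/R98S, Rps15 P131S/P131S and Rps15 H137Y/H137Y, called R98S, P131S and H137Y below. All clones, WT included, shared the same parent line, medium (10% serum, 1 ng/ml interleukin 3) and a 1 min exposure to 0.1 mg/ml cycloheximide before lysis. Each lysate was split, so that 1 clone gave a poly(A)-selected RNA library and a library of 28 to 30 nt ribosome footprints. What the WT clones went through during editing is not given in the sources used here, and the spread between 3 clones of a genotype holds differences between clones as well as technical ones.

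snoRNAs guide the chemical modification of ribosomal RNA: box C/D snoRNAs direct ribose methylation and box H/ACA snoRNAs direct pseudouridylation. Most mammalian snoRNAs are trimmed out of the introns of a host transcript, and in the genes studied here the exons that are spliced together afterwards have little capacity to code for protein. Many hosts begin with a 5' terminal oligopyrimidine (TOP) tract, a C at the cap followed by a run of pyrimidines, which ties the loading of ribosomes to growth signalling through mTOR. Ribosomes that do load soon meet a stop codon, and nonsense-mediated decay then removes the spliced RNA, so the level of a host can rise when translation or decay is blocked.

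Gas5, named for its accumulation in growth-arrested cells, Zfas1, Snhg1, Snhg5 and Snhg6 host box C/D snoRNAs. Snhg3, Snhg4, Snhg8 and Snhg15 host box H/ACA snoRNAs, and Snhg12 hosts both kinds. In the RefSeq annotation of GRCm38.p6, 8 snoRNA genes lie inside Gas5 (chr1:161034601-161038539, plus strand) and 8 inside Snhg1 (chr19:8723487-8726326, plus strand). Snhg12 (chr4:132308678-132311024, plus strand) holds 4, Zfas1 (chr2:167062934-167065862, plus strand) 3, Snhg3 (chr4:132351933-132353686, minus strand) 2 and Snhg5 (chr9:88521052-88522897, minus strand) 2. Snhg4, Snhg6, Snhg8 and Snhg15 hold 1 each. Over all 24 libraries Snora74a, inside Snhg4, had 75.0 footprint counts where its host had 6690. The other hosts had at most 14 footprint counts in the snoRNA genes the table lists inside them; for Gas5 only 1 of its 8 is listed.

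Because the TOP tract is read by its letters, the 30 bases around the annotated starts were searched for a C followed by at least 4 pyrimidines (letters C or T, on the strand of the gene), with the C within 10 bases of the start. Of the 9 member starts in the RefSeq promoter table (8 of the 10 genes) 5 held such a run, and 10093 of 32851 starts of all genes (30.7%) did. The windows of the members with a run, and of Snhg1 without one, are printed below from 10 bases before the start, with the pyrimidine run in capitals:
Gas5 (second annotated start, chr1:161035156-161035185, plus strand): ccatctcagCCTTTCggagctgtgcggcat
Snhg5 (chr9:88522878-88522907, minus strand): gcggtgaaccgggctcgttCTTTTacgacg
Snhg3 (chr4:132353667-132353696, minus strand): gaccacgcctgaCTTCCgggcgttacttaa
Snhg8 (chr3:123508317-123508346, minus strand): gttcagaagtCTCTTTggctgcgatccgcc
Snhg12 (chr4:132308668-132308697, plus strand): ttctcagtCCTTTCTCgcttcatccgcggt
Snhg1 (chr19:8723477-8723506, plus strand): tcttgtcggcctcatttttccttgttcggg
In Snhg8 the run begins at the annotated start itself, in Gas5 and Snhg12 it begins 1 and 2 bases before it, and in Snhg3 and Snhg5 it begins 2 and 9 bases after it. A match is a description of these letters, and no match says only that this run is not in this window of the annotation.

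Library totals were 13029073 to 38258559 counts in RNA and 15598994 to 72044439 in footprints. Levels below are CPM, the count of a gene scaled to the same library size by edgeR's TMM method, and a gene was called where edgeR's quasi-likelihood test gave an adjusted p under 0.05. Of the pro-B list, Ptprc (167 to 302 CPM), Csf2rb (450 to 1720 CPM) and Il3ra (25.6 to 35.1 CPM) were present in every RNA library. The B-lineage genes Ebf1, Pax5, Rag1 and Igll1 were at 0.12 CPM or less and Kit was at 0, while Cd79b had 3.34 to 9.91 CPM and Cd79a 0 to 9.81. The edited genes matched the labels of the Rpl5 and Rpl11 clones, with Rpl5 RNA at 1534 to 1589 CPM against 2283 to 2338 in WT and Rpl11 RNA at 1008 to 1150 CPM against 1665 to 1686. One clone labelled Rpl22 -/-, clone 30, went against its label: it had 1544 CPM of Rpl22 footprints, where the other 2 had 274 and 317 and the Rpl22 +/- clones 1429 to 1596. Rps15 RNA was unequal within both Rps15 genotypes: it was 907 CPM in P131S clone 24, 875 in H137Y clone 2 and 817 in H137Y clone 6, against 1433 to 1455 in WT and 1825 to 1935 in the other Rps15 clones.

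One RNA library stood apart for these genes. All 10 hosts were lowest in clone 6 of H137Y among its 3 clones, with a median log2 difference of -1.39 from the mean of the other 2 clones. The next lowest of the 24 RNA libraries, P131S clone 24, was at -0.24. In the same library 5 of 5 other non-coding snoRNA hosts were also lowest (median -1.62), whereas 31 protein-coding snoRNA hosts were at -0.05, 76 ribosomal protein genes at -0.20 and all genes tested at 0.01. The footprint library of that clone was at -0.39 for the hosts, with 7 of 10 lowest. Its part in the differences between genotypes was measured by leaving the clone out, and RNA results are given with and without it.

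**Figure D1:**
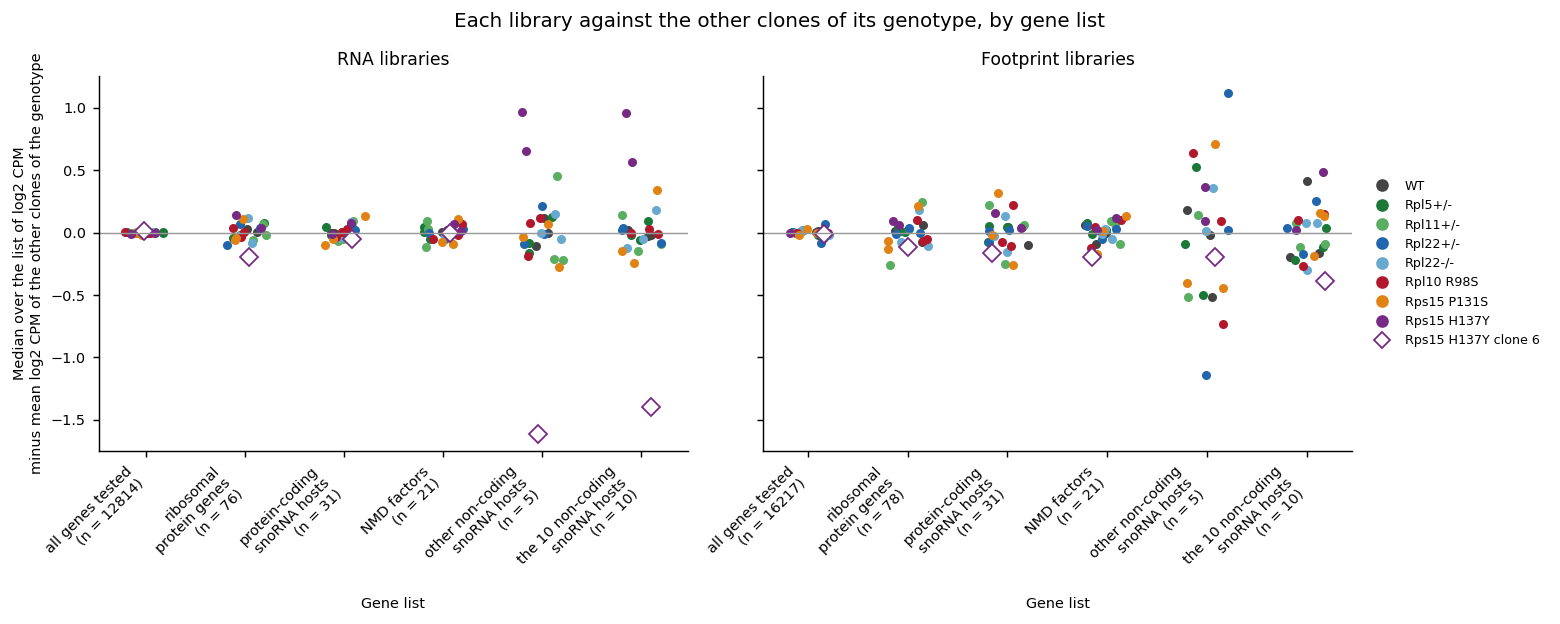
Each point is a library, placed by the median log2 CPM difference of a gene list from the mean of the other 2 clones of its genotype, in RNA and in footprints; the open diamond is clone 6 of Rps15 H137Y. Its RNA library is at -1.39 for the non-coding snoRNA hosts and -1.62 for the other non-coding hosts, and near 0 for protein-coding hosts.

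In P131S, 3 of the 10 host RNAs rose against WT and none fell, where 47% of all genes were called. Gas5, Snhg1 and Snhg3 were the 3, and the median log2 change of the 10 was 0.50 against -0.01 over all genes. All 3 P131S clones were above all 3 WT clones for 7 of the 10 hosts, a separation shown by 28.3% of all genes. P131S clone 20 was the highest P131S clone for 10 of 10 hosts. Summed RNA of the 13 pro-B and interleukin 3 receptor genes was also higher in these clones, 2492 to 3136 CPM against 1144 to 1276 in WT. This sum was carried mostly by Csf2rb, Csf2rb2 and Ptprc, with medians of 639, 505 and 243 CPM over all libraries. The sum of the 3 mast and basophil genes was 98.6 to 277 CPM against 15.9 to 46.3, and that of the 5 myeloid genes 50.0 to 106 against 30.9 to 41.6. The part of these cell-state genes in the host levels was not tested, and in bulk RNA a change per cell and a change in the share of cells cannot be told apart.

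Among the box C/D hosts, Gas5 RNA was 144, 154 and 153 CPM in WT clones 1, 2 and 3 and 267, 207 and 241 CPM in P131S clones 20, 24 and 63. The groups did not overlap, and the log2 change was 0.66 (SE 0.17, n = 3 clones each, edgeR adjusted p = 0.00416). SE here and below is the absolute log2 change divided by the square root of edgeR's F statistic. It rests on the spread fitted over all genotypes, not on the clones of the 2 groups alone. Snhg1, host of Snord22 and its neighbours, had 111, 108 and 110 CPM in WT and 325, 201 and 219 CPM in P131S. Every P131S clone was above every WT clone, clone 20 by the widest margin, and the log2 change was 1.18 (SE 0.31, edgeR adjusted p = 0.00521). Snhg3, which hosts the Snora73 genes that assist early cleavage of ribosomal RNA, had 45.7, 58.5 and 52.6 CPM in WT and 142, 88.5 and 86.7 CPM in P131S. Its clones did not overlap either, but clone 20 set much of the log2 change of 1.02 (SE 0.29, edgeR adjusted p = 0.00894), which was 0.74 with adjusted p = 0.0676 without that clone. Snhg5 had 123, 61.6 and 75.8 CPM in P131S against 58.7, 55.8 and 60.9 in WT, a log2 change of 0.57 that missed the threshold.

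Leaving out H137Y clone 6, which is in neither group but shares the estimate of the spread, left the log2 changes of P131S as they were to 2 decimals and lowered their adjusted p. In that fit 7 hosts rose in P131S, where 50.1% of all genes were called. Zfas1 (log2 change 0.25, edgeR adjusted p = 0.0385), Snhg4 (0.43, 0.00921), Snhg5 (0.57, 0.00819) and Snhg15 (0.60, 0.00114) joined the 3. Snhg6, Snhg8 and Snhg12 passed in neither fit.

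**Figure D2:**
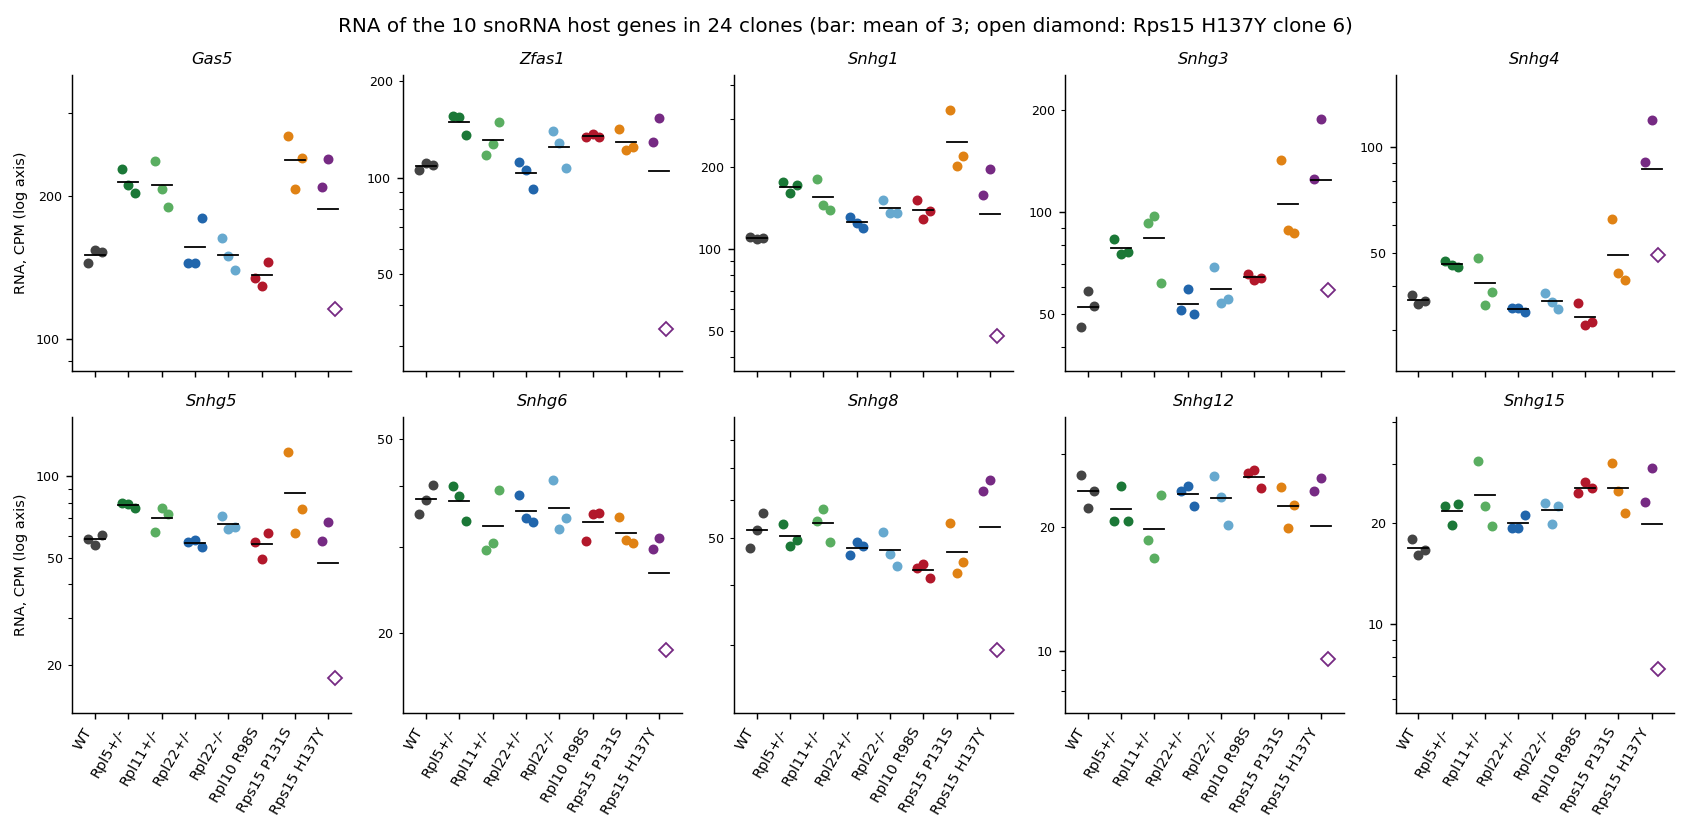
RNA level in CPM (log axis) of each of the 10 hosts by genotype, with a point per clone and a bar at the mean of 3 clones. Gas5, Snhg1 and Snhg3 sit above WT in all P131S clones, and clone 6 of H137Y lies far below the other 2 H137Y clones, at 116 CPM for Gas5 against 209 and 239.

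In H137Y, 2 host RNAs rose, Snhg3 and Snhg4, and Snhg6 fell, where 41% of all genes were called. All 3 H137Y clones were above all WT clones for 2 of the 10 hosts, against 24.9% of all genes. Snhg4, host of the H/ACA snoRNA Snora74a, had 37.7, 35.6 and 36.4 CPM in WT and 90.6, 120 and 49.1 CPM in H137Y clones 16, 2 and 6. No H137Y clone reached down to WT, and the log2 change of 1.24 (SE 0.21, edgeR adjusted p = 0.000146) was 1.52 without clone 6. Snhg3 had 125, 189 and 58.6 CPM in the same clones, a log2 change of 1.25 against WT (SE 0.29, edgeR adjusted p = 0.00273). Clone 6 only just exceeded the highest WT clone, at 58.5 CPM, and without it the change was 1.58. Snhg6, host of Snord87, went the other way, with 29.7, 31.3 and 18.5 CPM against 35.0, 37.5 and 40.2 in WT. All H137Y clones lay below WT, but clone 6 set the size: the log2 change was -0.50 (SE 0.15, edgeR adjusted p = 0.00865) with it and -0.30 (adjusted p = 0.0448) without it.

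Without clone 6, 8 hosts were called in H137Y against WT, where 41.4% of all genes were. Beside Snhg3, Snhg4 and Snhg6, these were Gas5 (log2 change 0.57, edgeR adjusted p = 0.000331), Snhg1 (0.69, 0.00112), Snhg15 (0.63, 0.00216), Zfas1 (0.38, 0.00904) and Snhg8 (0.30, 0.0127). With clone 6 the log2 changes of these 5 were 0.32, 0.29, 0.24, -0.04 and 0.02, all short of the threshold. In Zfas1 the call turned on this library, with 129 and 153 CPM in clones 16 and 2, 33.8 in clone 6 and 105, 111 and 109 in WT. Snhg5 and Snhg12 passed in neither fit. Summed RNA of the 3 erythroid genes was 46.0 to 274 CPM in H137Y against 18.5 to 43.4 in WT, and that of the 5 myeloid genes 42.4 to 171 against 30.9 to 41.6. The pro-B and interleukin 3 receptor sum was 1615 to 2712 CPM against 1144 to 1276, and the part of these genes in the host levels was not tested.

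The 2 Rps15 mutants were also compared with each other. In RNA 2 hosts were called in P131S against H137Y, where 25.2% of all genes were: Snhg1 was higher in P131S (log2 0.89, SE 0.31, edgeR adjusted p = 0.0449) and Snhg4 lower (-0.81, SE 0.21, adjusted p = 0.00818). For Snhg4 the 2 groups overlapped, since P131S clone 20 had 62.2 CPM and H137Y clone 6 had 49.1. Without H137Y clone 6 the difference in Snhg4 was -1.09 (adjusted p = 1.9e-05), that in Snhg1 was 0.49 (adjusted p = 0.023) and Snhg8 was also called at -0.45, making 3 where 27.8% of all genes were called. The Snhg1 call was lost in 3 of 6 fits with a clone left out: without P131S clone 20 (0.64, adjusted p = 0.202), P131S clone 63 (0.97, 0.0548) or H137Y clone 16 (1.02, 0.0608). It was also lost without the filter on low counts (adjusted p = 0.0826) and with only the 2 genotypes compared (0.409). Likewise leaving out H137Y clone 2 took Snhg4 to -0.51 (adjusted p = 0.0572).

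In Rpl5 +/- and Rpl11 +/- host RNA was mostly above WT, and no host passed edgeR's test over all clones. In Rpl5 +/- no host was called, where 1.04% of all genes were. An unadjusted p under 0.05 was found for 1 host, Gas5, and for 1897 of 12814 genes, and DESeq2 called 0 hosts. All 3 Rpl5 +/- clones were nonetheless above all WT clones for 7 of 10 hosts, a separation shown by 16.6% of all genes, and the median log2 change was 0.39. Gas5 had 228, 211 and 203 CPM in clones 68, 76 and 80, a log2 change of 0.51 (SE 0.17, edgeR adjusted p = 0.160). The Rpl5 +/- clones kept clear of the WT range of 144 to 154 CPM, and without H137Y clone 6 the same change had an adjusted p of 0.0111. In that fit Snhg1 (0.63, adjusted p = 0.0169) and Zfas1 (0.45, adjusted p = 0.0163) rose as well, so that 3 hosts were called where 3.35% of all genes were. In these clones the pro-B and interleukin 3 receptor sum was 1549 to 1581 CPM (WT 1144 to 1276) and the mast and basophil sum 50.9 to 104 (WT 15.9 to 46.3); their part in the host levels was not tested.

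In Rpl11 +/- no host was called, where 11.8% of all genes were. An unadjusted p under 0.05 was found for 2 hosts and for 3447 of 12814 genes. DESeq2 called 1 host, Gas5 (adjusted p = 0.0278), where it called 1898 of 12814 genes. All 3 clones were above WT for 6 of 10 hosts (16.5% of all genes), and the median log2 change was 0.27. Gas5 had 237, 207 and 190 CPM in clones 22, 406 and 414, and Snhg3 had 93.0, 97.6 and 61.5 CPM. Both stood above WT in every clone, with clone 414 the nearest to WT. Without H137Y clone 6, 4 hosts rose where 16.6% of all genes were called: Gas5 (0.49, edgeR adjusted p = 0.00264), Snhg1 (0.50, 0.0179), Snhg15 (0.52, 0.0129) and Snhg3 (0.68, 0.0276). The same pro-B sum was 1303 to 2227 CPM in these clones, the mast and basophil sum 50.8 to 79.7 and the erythroid sum 61.6 to 68.8 (WT 18.5 to 43.4), all above WT and with their part not tested.

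In R98S no host RNA was called, where 12.9% of all genes were. An unadjusted p under 0.05 was found for 0 hosts and for 3629 of 12814 genes, and DESeq2 called 0 hosts. The clones were all above WT for 4 of 10 hosts (23.5% of all genes). Snhg15, host of an H/ACA snoRNA, had 24.6, 26.5 and 25.4 CPM in clones A29, A30 and A34 against 17.9, 16.0 and 16.6 in WT. The groups lay well apart at a log2 change of 0.60 (SE 0.30, edgeR adjusted p = 0.193). Without H137Y clone 6 this change passed (adjusted p = 0.00522), Zfas1 rose (0.32, adjusted p = 0.0317) and Snhg8 fell by 0.27 (adjusted p = 0.0309), making 3 hosts where 17.4% of all genes were called. Gas5 RNA was 135, 129 and 145 CPM in R98S, with the highest clone just inside the WT range.

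No host RNA was called in Rpl22 +/- (3.9% of all genes called), in Rpl22 -/- (5.27%) or between the 2 (0.0078%). In each, 0 hosts had an unadjusted p under 0.05, where 1982, 2312 and 538 of 12814 genes had one, and DESeq2 called 0 hosts. All clones were above WT for 2 hosts in Rpl22 +/- (15% of all genes) and 3 in Rpl22 -/- (16.4%). Without H137Y clone 6 there was still no call, where 5.84%, 7.54% and 0.00765% of all genes were called, and 0 hosts were called by DESeq2 on all libraries. Clone 30, whose label the Rpl22 footprints contradict, was the highest of the Rpl22 -/- clones for 10 of 10 host RNAs. In Rpl22 +/- the pro-B and interleukin 3 receptor sum was 1457 to 1736 CPM (WT 1144 to 1276). The mast and basophil sum was 68.4 to 89.1 CPM (WT 15.9 to 46.3). Both lay above WT, while the median log2 change of the hosts was -0.03. In Rpl22 -/- both sums overlapped WT, at 1147 to 1328 and 7.91 to 61.3 CPM. The part of these genes in the host levels was not tested.

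Over all 8 genotypes, 3 host RNAs differed in the test of any genotype difference, where 65.6% of all genes did: Gas5 (edgeR adjusted p = 0.00257), Snhg3 (0.00603) and Snhg4 (0.000132). Without H137Y clone 6, 8 did, where 69.6% of all genes did, all but Snhg6 and Snhg12. The order of mean Gas5 RNA from low to high was R98S, WT, Rpl22 -/-, Rpl22 +/-, H137Y, Rpl11 +/-, Rpl5 +/- and P131S, and every pair of neighbours in this order overlapped. Snhg1 ran from WT through Rpl22 +/-, H137Y, R98S, Rpl22 -/-, Rpl11 +/- and Rpl5 +/- to P131S, and 2 of its 7 neighbouring pairs did not overlap. The place of H137Y in both orders holds clone 6. Without it mean H137Y RNA was 224 CPM for Gas5 and 178 CPM for Snhg1. Both means then lay between Rpl5 +/- (214 and 170 CPM) and P131S (238 and 249 CPM). Snhg4 was lowest in R98S and highest in H137Y, with overlap between all neighbours. Of the 7 neighbouring pairs, 1 did not overlap for Snhg3 and 2 for Snhg5, and all overlapped for Zfas1, Snhg6, Snhg8, Snhg12 and Snhg15. These overlaps were counted with clone 6 included and for the hosts only. The share over all genes was not counted, so they describe each host and do not set the hosts apart from other genes.

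Ribosome footprints on these hosts were then compared. Gas5 footprints fell in R98S: 260, 191 and 188 CPM in WT clones 1, 2 and 3 became 117, 85.0 and 114 CPM in clones A29, A30 and A34. No R98S clone came near the WT range, and the log2 change was -1.01 (SE 0.20, edgeR adjusted p = 0.0125). It was the only host called in R98S, where 1.62% of all genes were. The adjusted p rose to 0.0885 without WT clone 1 (log2 change -0.85) and to 0.0816 without R98S clone A30 (-0.87). In RNA of the same clones the summed myeloid genes were 17.98 to 22.2 CPM against 30.9 to 41.6 in WT, and their part in this result was not tested. Gas5 footprints were lowest in R98S and highest in Rpl11 +/-, at 402, 416 and 294 CPM. R98S and WT were the only neighbours in the order of genotypes that did not overlap, and such overlaps were not counted over all genes.

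In P131S the footprints of 2 hosts rose, where 16.7% of all genes were called. Snhg1 went from 67.7, 48.4 and 57.7 CPM in WT to 140, 80.2 and 122 CPM, without overlap (log2 change 0.98, SE 0.17, edgeR adjusted p = 0.000609). Snhg5, host of the Snord50 genes, went from 38.5, 31.4 and 26.4 CPM to 81.5, 44.4 and 64.0 CPM, with its nearest P131S clone, 24, still above WT (0.98, SE 0.20, adjusted p = 0.00192). Snhg3, whose RNA rose in P131S, had 53.9, 53.4 and 59.4 CPM of footprints against 48.9, 43.2 and 31.2, a log2 change of 0.44 with edgeR adjusted p = 0.282.

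In H137Y 2 hosts rose in footprints, where 11.7% of all genes were called. Snhg3 had 87.6, 181 and 104 CPM in clones 16, 2 and 6, every one above the WT maximum of 48.9 (log2 change 1.60, SE 0.26, edgeR adjusted p = 0.000563). Snhg1 had 98.8, 114 and 78.4 CPM, again without overlap (0.75, SE 0.17, adjusted p = 0.00682). Snhg4 footprints were few, 7.84, 13.7 and 4.74 CPM against 6.11, 4.27 and 4.01 in WT, and the 2 groups overlapped (log2 change 0.87, adjusted p = 0.178).

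Set against each other, P131S had fewer Snhg3 footprints than H137Y (log2 -1.16, SE 0.26, edgeR adjusted p = 0.0139) and more Snhg5 footprints (0.87, SE 0.20, adjusted p = 0.0155), making 2 hosts where 4.17% of all genes were called. The Snhg3 groups did not overlap, with 59.4 CPM the highest P131S clone and 87.6 the lowest H137Y clone. Leaving out P131S clone 20 ended both calls (adjusted p = 0.065 and 0.109), leaving out H137Y clone 2 ended that of Snhg3 (0.105) and leaving out H137Y clone 6 that of Snhg5 (0.0692).

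No host footprints were called in Rpl5 +/- (0.0123% of all genes), Rpl11 +/- (0.074%), Rpl22 +/- (0.253%), Rpl22 -/- (0.105%) or Rpl22 -/- against Rpl22 +/- (0.00617%). Hosts with an unadjusted p under 0.05 numbered 1, 4, 0, 5 and 1 in these, where 667, 1601, 2223, 1093 and 2336 of 16217 genes had one. DESeq2 called 1 host in Rpl11 +/-, where it called 229 of 16217 genes, and 0 hosts in the others. In Rpl11 +/- Gas5 footprints had a log2 change of 0.80 with edgeR adjusted p = 0.123. Over all genotypes the footprints of Gas5, Snhg1, Snhg3 and Snhg5 differed, 4 hosts where 24.6% of all genes did. The 5 footprint calls against WT were also made without H137Y clone 6.

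**Figure D3:**
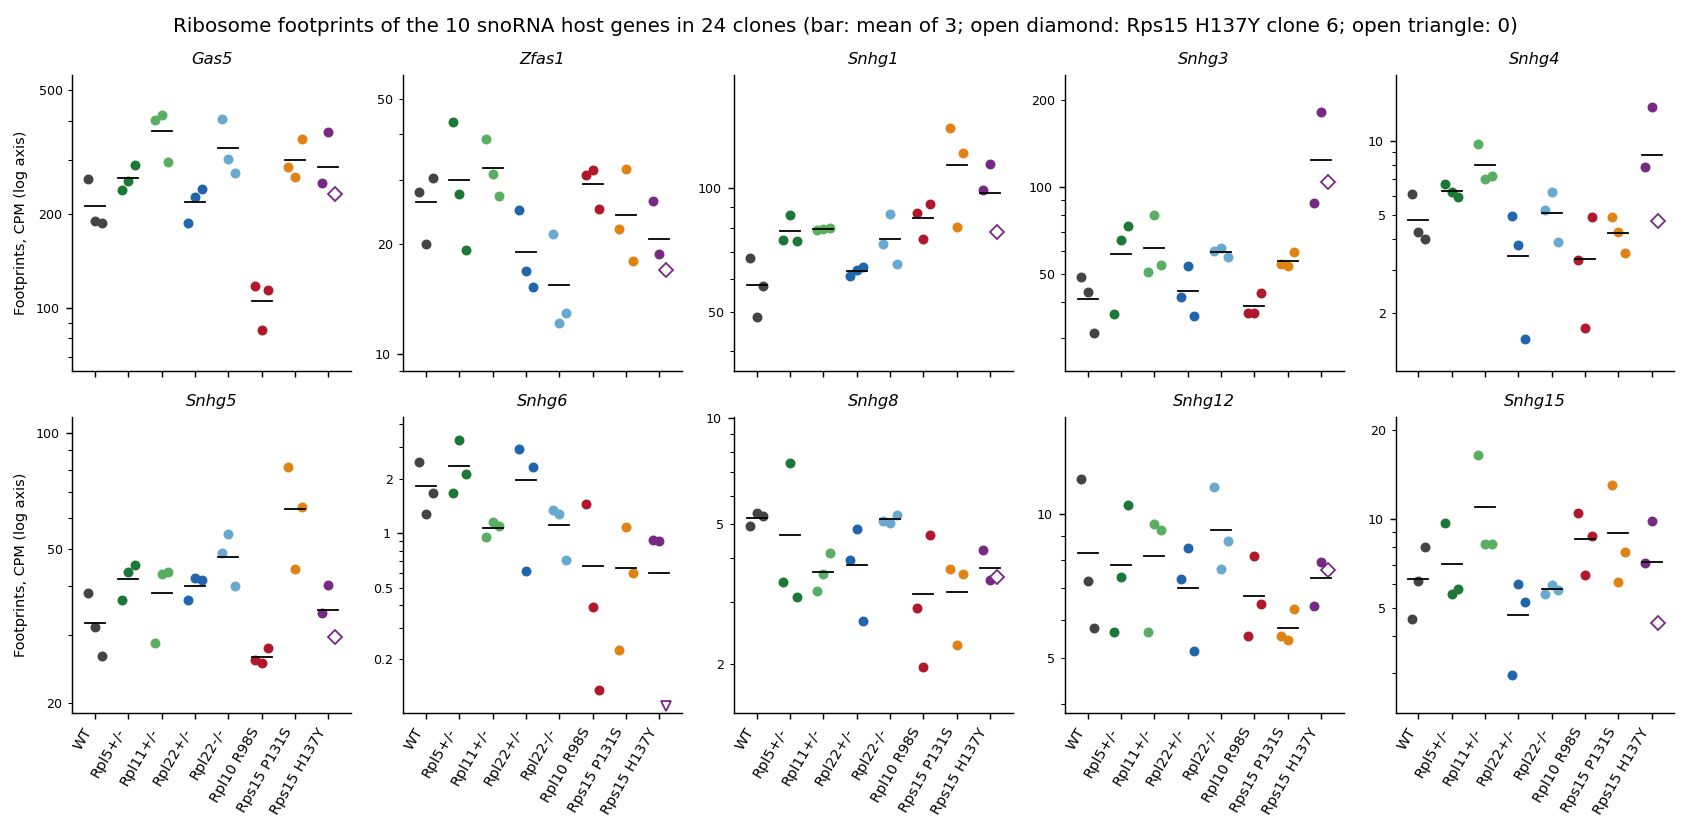
Footprint level in CPM (log axis) of each host by genotype, a point per clone (open diamond: H137Y clone 6, triangle: 0) and a bar at the mean of 3 clones. Gas5 is lowest in R98S (85.0 to 117 CPM), Snhg3 is highest in H137Y (87.6 to 181 CPM) and Snhg6 stays at or below 3.27 CPM.

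The ratio of footprint CPM to RNA CPM in the same clone describes how many footprints a host carried for its RNA, in relative units, since both assays are scaled to their own totals. In WT, 9 of the 10 hosts had a ratio below the median of 10623 protein-coding genes, 0.807. Gas5 was the exception at the 77.1 percentile of the coding genes, and Snhg3 stood at the 47.98 percentile, next to the coding median. Snhg5 and Snhg1 followed at the 32.6 and 31.3 percentiles, Snhg15 at 20.0, Snhg12 at 17.1 and Zfas1 at 11.3. Snhg4, Snhg8 and Snhg6 were at 4.79, 3.20 and 1.20. The other 341 long non-coding RNAs had a median ratio of 0.585.

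The hosts spanned a wide range among themselves. Gas5 had a median ratio of 1.38 over the 24 clones and was above 1 in 21 of them, the 3 others being the R98S clones. Medians for the rest were 0.774 for Snhg3, 0.598 for Snhg5, 0.536 for Snhg1, 0.324 for Snhg15, 0.301 for Snhg12 and 0.184 for Zfas1. Snhg4 had 0.117, Snhg8 0.0825 and Snhg6 0.0334, the last with 0 to 3.27 CPM of footprints per clone. Among the 8 hosts with a start in the promoter table, presence of a pyrimidine run at the annotated start did not sort them by ratio. Gas5 (at its second start only), Snhg3 and Snhg5 with a run were the 3 highest, and Snhg8 with one was the lowest. Snhg4 and Snhg6, which also had low ratios, are not among these 8. These footprints are reads of footprint length, and whether they were counted over the whole transcript is not given in the sources used here.

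**Figure D4:**
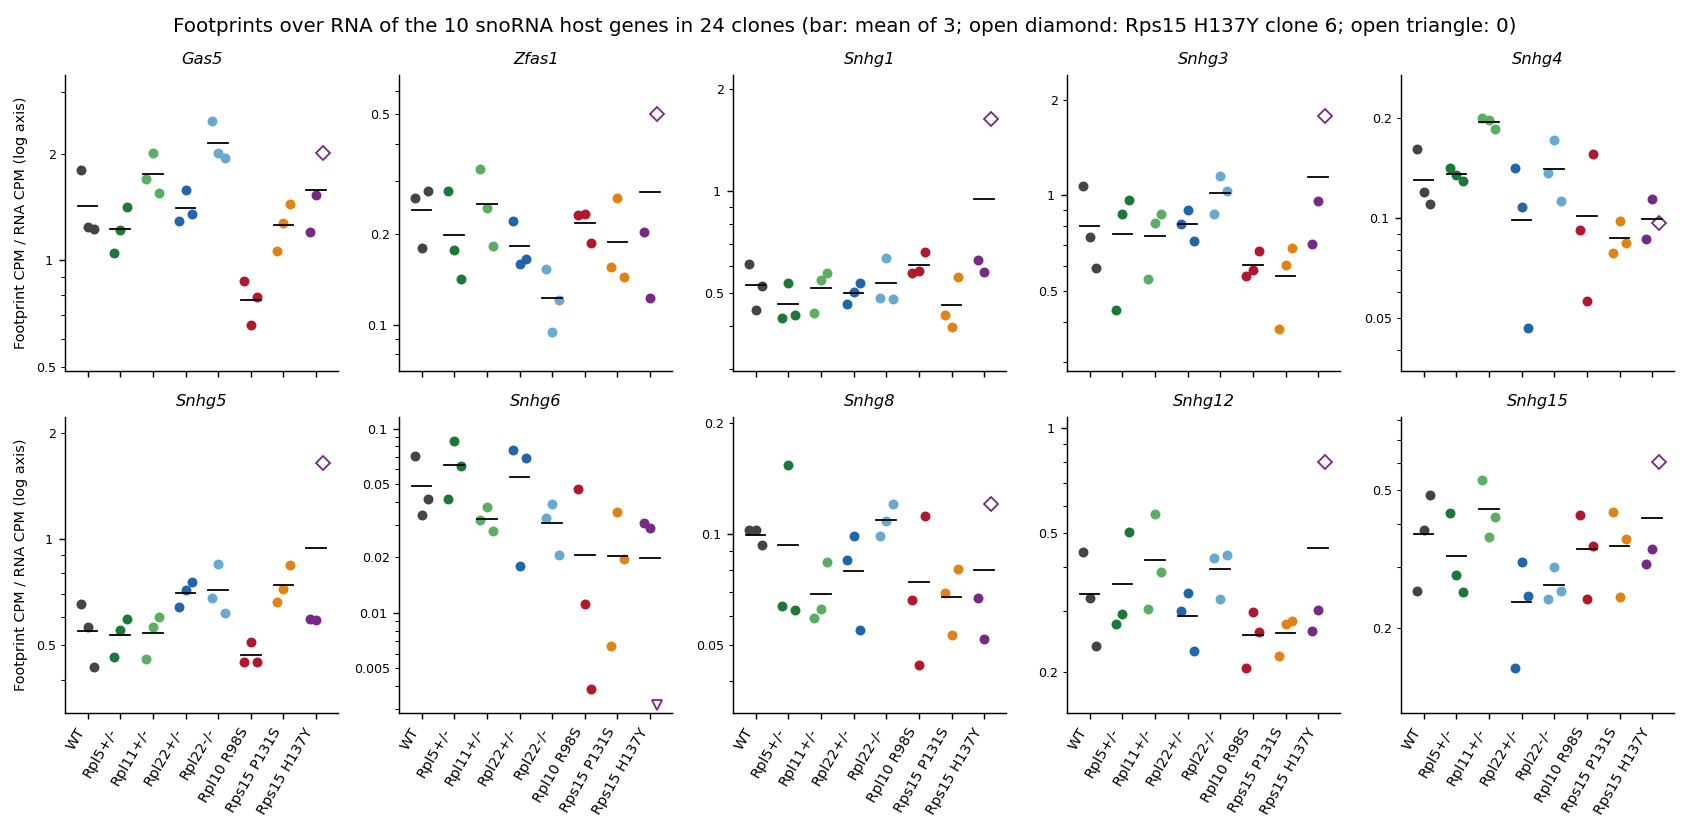
Ratio of footprint CPM to RNA CPM of the same clone, on a log axis, for each host and genotype, with a point per clone. Gas5 lies above 1 in 21 of 24 clones and below 1 in the 3 R98S clones, and Snhg4, Snhg8 and Snhg6 have the lowest medians, at 0.117, 0.0825 and 0.0334.

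Across genotypes the Gas5 ratio was 0.873, 0.658 and 0.788 in R98S clones A29, A30 and A34. It was 1.80, 1.24 and 1.23 in WT and 2.48, 2.01 and 1.95 in Rpl22 -/- clones 30, 649 and 776. R98S did not overlap with any other genotype, and Rpl22 -/- overlapped with Rpl11 +/- and H137Y. The mean ± SD (n = 3) was 0.773 ± 0.108 in R98S, 1.42 ± 0.328 in WT and 2.15 ± 0.290 in Rpl22 -/-. The test of any genotype difference called Gas5 alone among the hosts (edgeR adjusted p = 0.0104), where 6.6% of all genes were called, and it called 0 hosts without R98S clone A30 or A34. In R98S against WT the log2 change of the Gas5 ratio was -0.89 (SE 0.27, unadjusted p = 0.001995), which did not pass over all genes (edgeR adjusted p = 0.186) and did pass with the clone as a block (-0.89, adjusted p = 0.0211). Gas5 RNA in R98S had a log2 change of -0.14 (SE 0.17, edgeR adjusted p = 0.632).

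No host passed in any of the 9 comparisons of the ratio, and DESeq2 called 0 in each. The shares of all genes called were 0% in Rpl5 +/-, 0% in Rpl11 +/-, 0.00604% in Rpl22 +/-, 0.0121% in Rpl22 -/-, 0.217% in R98S, 3.14% in P131S and 2.76% in H137Y against WT. They were 0% in Rpl22 -/- against Rpl22 +/- and 0.682% in P131S against H137Y. Hosts with an unadjusted p under 0.05 numbered 2 in Rpl22 -/- (832 of 16568 genes) and 1 in R98S (1246 genes). There was 1 in Rpl22 -/- against Rpl22 +/- (1497 genes), 1 in P131S against H137Y (1895 genes) and 0 in the other 5. The median log2 change of the ratio over the hosts was -0.40 in R98S and -0.40 in P131S, against -0.02 and -0.01 over all genes, with 1 of 10 hosts positive in each. In H137Y clone 6, where host RNA was low and footprints less so, the ratios of Snhg1, Snhg3 and Snhg5 were 1.64, 1.78 and 1.65, against 0.579 to 0.958 in clones 16 and 2.

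**Figure D5:**
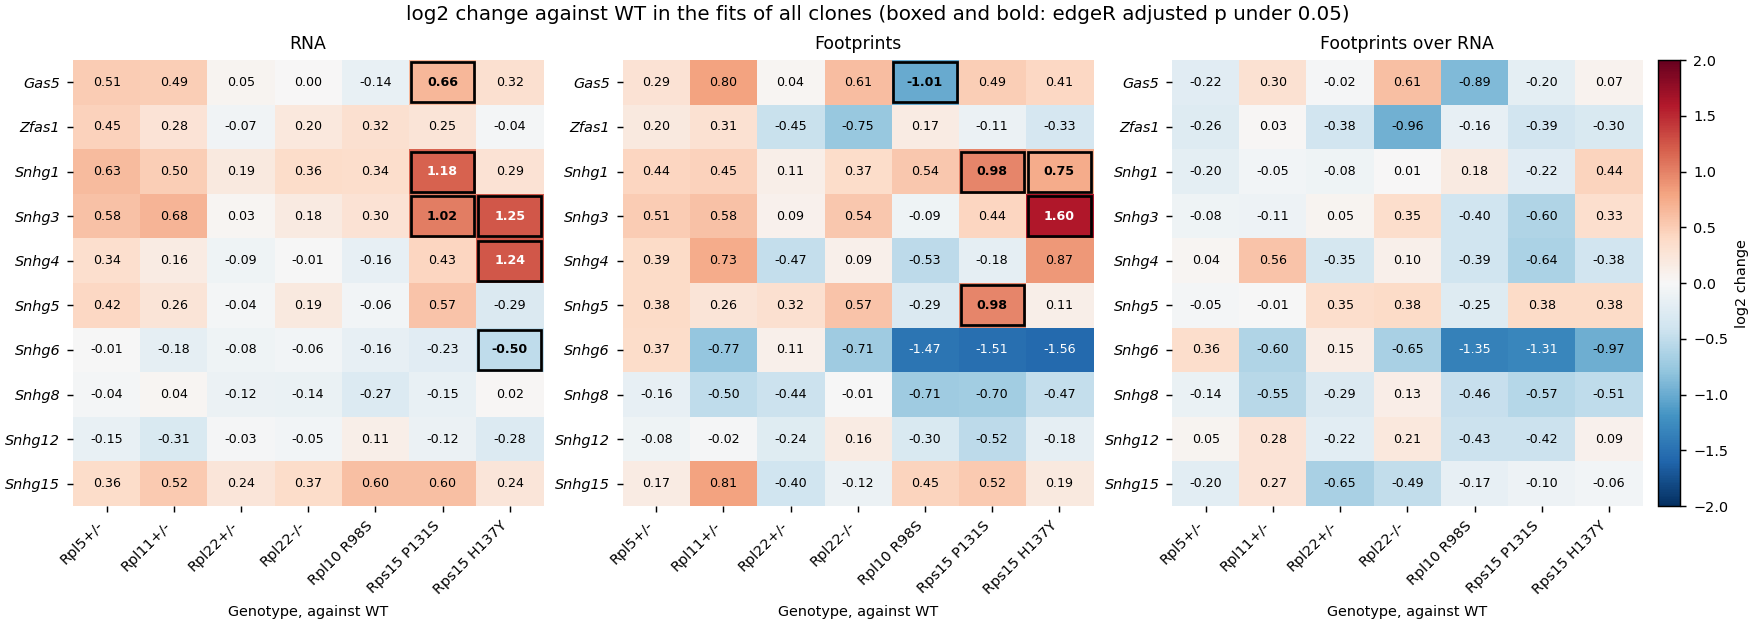
Log2 change against WT of each host (rows) in each of the 7 mutant genotypes (columns), for RNA, footprints and their ratio, with boxed cells at adjusted p under 0.05. Boxes fall on P131S and H137Y in RNA and on R98S, P131S and H137Y in footprints, and there is none in the ratio.

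Other genes of the pathway were read from lists. Of 10 further non-coding hosts 8 were in the table and 5 were tested in RNA. In P131S 3 of the 5 rose, where 47% of all genes were called: Snhg17 (log2 change 1.17, edgeR adjusted p = 0.00216), Snhg16 (1.17, 0.00843) and Dancr (0.78, 0.00911). In H137Y, where 41% were, 3 rose as well: Dancr (1.31, adjusted p = 0.000152), Snhg17 (0.76, 0.0335) and Snhg10 (0.81, 0.0477). Snhg17 also rose in Rpl11 +/- (0.89, adjusted p = 0.0442), and none of the 5 was called in Rpl5 +/-, R98S or either Rpl22 genotype.

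The 31 protein-coding snoRNA hosts, most of them ribosomal protein and translation factor genes that also begin with a TOP tract, were the largest of these lists. Against WT 25 rose in Rpl11 +/-, 25 in P131S, 25 in H137Y, 15 in R98S and 10 in Rpl5 +/-, none fell, and none was called in either Rpl22 genotype. The shares of all genes called were 11.8%, 47%, 41%, 12.9% and 1.04% in these 5 genotypes. Their median log2 change was 0.33 in Rpl11 +/-, 0.29 in P131S and 0.30 in H137Y. Hspa8, a chaperone gene, had the widest change among them in P131S (1.17, edgeR adjusted p = 1.9e-07), and Tpt1, a growth-related TOP gene, rose by 0.56 there and 0.71 in H137Y. In the ratio, 4 were lower in H137Y, where 2.76% of all genes were called. They were Tpt1 (-1.06, edgeR adjusted p = 0.000821), Eef1b2 (-0.86, 0.00138), Eef2 (-0.54, 0.0164) and Rpl23 (-0.78, 0.0292). In the P131S ratio, where 3.14% of all genes were called, Tpt1 was lower as well (-0.85, edgeR adjusted p = 0.00576) and Rpl3 higher (0.43, 0.0315). In footprints 11 of the 31 rose in P131S and 2 in H137Y, where 16.7% and 11.7% of all genes were called. In R98S, where Gas5 footprints fell and 1.62% of all genes were called, 3 of the 31 had more footprints. Among the 3 were Hspa8 (1.00, edgeR adjusted p = 0.00965) and Rpl12 (0.67, adjusted p = 0.00965).

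Among 21 factors of nonsense-mediated decay and RNA decapping, 10 rose and 2 fell in P131S RNA, and 8 rose and 4 fell in H137Y, where 47% and 41% of all genes were called. Smg5, which helps to return Upf1 to its resting state, rose in P131S (log2 change 1.06, edgeR adjusted p = 1.8e-06), as did Magoh of the exon junction complex (0.63, adjusted p = 0.000122). Pnrc2, which links decay to decapping, fell by 0.56 in P131S and by 0.85 in H137Y (adjusted p = 3.7e-06 and 2.2e-08). It was also called lower in Rpl11 +/- (-0.37), Rpl22 +/- (-0.67), Rpl22 -/- (-0.52) and R98S (-0.54), and the decapping cofactor Dcp1a was called lower in the same 6 genotypes, by log2 changes of -0.50 to -0.38. Upf1, the central helicase of the pathway, and Smg1, the kinase that activates it, rose in H137Y (0.43 and 0.50, adjusted p = 8.7e-05 and 0.000132). Upf1 was lower than WT in Rpl5 +/- (-0.36, adjusted p = 0.0265) and Rpl22 -/- (-0.30, adjusted p = 0.0197). In footprints Smg5 rose in P131S (0.94, adjusted p = 0.00066), in H137Y (0.85, adjusted p = 0.0023) and in R98S (0.72, adjusted p = 0.0313), where Smg1 fell by 0.55 (adjusted p = 0.0201).

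Similarity between hosts was described by correlation. Over the 24 RNA libraries 42 of the 45 pairs of hosts had a positive Pearson r and 29 had r above 0.5, with a median of 0.55. Without H137Y clone 6, 33 pairs were positive, 17 were above 0.5 and the median was 0.33. Snhg3 and Snhg4 had the highest r in that set, 0.86, and Snhg6 and Snhg15 the lowest, -0.50. Over the footprint libraries 31 pairs were positive, 5 were above 0.5 and the median was 0.14. These are descriptions over libraries that share genotypes and scaling.

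The genes most like the mean of the hosts over the 24 RNA libraries were Rps29 (r = 0.91), Eif4a2 (0.89), Zfp266 (0.89), Zfp955b (0.87) and Rps28 (0.86) among 12804 others. Their ranks without H137Y clone 6 were 146, 63, 219, 197 and 108, so this order rested on that library. Taf1d, itself a host of snoRNAs and chosen here after its value was seen, was then first with r = 0.94, followed by Rps15a (0.90). In footprints Prmt3 (0.76), C1d (0.76), M6pr (0.75), Ncoa5 (0.73) and Hnrnpc (0.73) were most like the hosts, and all 5 were still among the first 12 without that clone.

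Some host loci overlap other genes, and whether the counting used strand is not given in the sources used here, so reads of overlapping genes could not be told apart. Gas5 overlaps Zbtb37, Zfas1 overlaps Znfx1 and Snhg6 overlaps Mcmdc2. Zbtb37 RNA was not called in P131S (log2 change -0.27, edgeR adjusted p = 0.185), where Gas5 rose. In R98S footprints Zbtb37 had a log2 change of -0.33 (adjusted p = 0.874), beside -1.01 for Gas5. Znfx1 RNA rose in P131S (0.29, adjusted p = 0.0287) and H137Y (0.36, adjusted p = 0.00952).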

How the data were processed

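RNA-seq and ribosome footprint libraries of 24 Ba/F3 clones (3 clones for each of 8 genotypes, 48 libraries) were analysed. The authors deposited estimated counts per gene for all libraries together, not normalized, of which 64.5% of the positive values are whole. The submitters' processing notes name GRCm38, STAR 2.6.1d, Salmon 1.4.0 and DESeq2 1.30, without a role or order. The feature counted, the use of strand and the rule for reads with more than 1 match are not given in the sources used here. No column of samples was left unused (0 columns). Footprint reads carry no molecular identifier that the labels name, so counts are reads.

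Values were rounded to whole numbers and tested with edgeR 4.0.16 (limma 3.58.1, data.table, version 1.17.8, R 4.3.3): filterByExpr with a minimum count of 10, TMM within each assay (factors 0.913 to 1.06 in RNA and 0.877 to 1.08 in footprints), a quasi-likelihood fit over all genotypes, and 2-sided tests with Benjamini-Hochberg adjustment over all genes at 0.05. The 9 comparisons and a test of any genotype difference were made for RNA, footprints and ratio, the last as the interaction of assay and genotype over 48 libraries. Levels are CPM on TMM-scaled sizes, and the ratio ranks used log2 with 0.1 CPM added to both. The scripts were tested on simulated data. The smallest p that exact permutation of 3 and 3 clones allows is 0.1, so calls rest on the spread estimated across genes.

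The labels state that each lysate was divided, which pairs the 2 libraries of a clone. In 24 of 24 clones the deviations of both libraries from their genotype means correlated above 0.1 over 10080 genes (0.174 to 0.600), against -0.514 to 0.0174 for other clones of the same genotype. Alternatives were DESeq2 1.42.0, limma voom, no filter, only the 2 genotypes compared, each clone left out, plain library totals for the ratio and the clone as a block. Omission of Rps15 H137Y clone 6 from all comparisons was added after seeing the data.

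The 10 members, the gene lists and the comparisons were chosen with earlier results of these data known. All members are named. Of other genes, at most 4 per list and comparison are named, those with the smallest p among those called, and the 5 genes most correlated with the mean of the members at each level. Sequences and coordinates are RefSeq GRCm38.p6. The starts of Snhg4 and Snhg6 are not shown, and some results on other genes are not reported here.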

Additional observations from a re-analysis of the deposited data

Results flagged for a closer look

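In 4 cases the difference between the 2 Rps15 mutants passed the test itself, in edgeR's quasi-likelihood fit with adjustment over all genes. In RNA 2 of the 10 hosts were called, where 25.2% of all genes were. In footprints 2 of 10 were, where 4.17% of all genes were. Snhg1 RNA was higher in P131S than in H137Y (log2 0.89, SE 0.31, adjusted p = 0.0449), and 3 of 3 P131S clones were above 3 of 3 H137Y clones. The call was lost in 3 of 6 fits with a clone left out (adjusted p = 0.202 without P131S clone 20, 0.0548 without P131S clone 63 and 0.0608 without H137Y clone 16). Snhg4 RNA was lower in P131S (log2 -0.81, adjusted p = 0.00818), with overlapping clones. Snhg3 footprints were lower in P131S (log2 -1.16, adjusted p = 0.0139) and Snhg5 footprints higher (0.87, adjusted p = 0.0155). Of 6 fits with a clone left out, the call was lost in 1 for Snhg4 RNA, 2 for Snhg3 footprints and 2 for Snhg5 footprints. All 4 calls were lost with only the 2 genotypes compared. Those of Snhg1 RNA and Snhg3 footprints were also lost without the filter on low counts. The part of the H137Y clone 6 libraries in these 4 differences is given by the values without that clone. In RNA they were 0.49 for Snhg1 and -1.09 for Snhg4. In footprints they were -1.26 for Snhg3 and 0.79 for Snhg5, of which the last missed the threshold (adjusted p = 0.0692).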

How the results depend on the processing

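No host changed direction among the called changes under any alternative run. Of the called changes, 85 values with a clone left out stayed past the threshold and 11 did not, and 52 of 60 values under other settings did. With only the 2 genotypes compared, hosts called in RNA numbered 7 in Rpl5 +/-, 2 in Rpl11 +/-, 1 in Rpl22 +/-, 2 in Rpl22 -/-, 6 in R98S, 6 in P131S, 1 in H137Y and 0 in P131S against H137Y. In the first 6 of these fits 1868 of 11814, 855 of 12008, 1248 of 11934, 1436 of 11928, 4216 of 11917 and 5180 of 11917 genes were called, and Gas5 (-0.14) and Snhg8 (-0.27) were lower in R98S. Footprint counts there were 2 in R98S, where 689 of 14124 genes were called, and 0 in P131S against H137Y. In the ratio of R98S 1 host, Gas5, was called, where 179 of 15118 genes were. DESeq2 called 1 host in Rpl11 +/- RNA (1898 of 12814 genes), 1 in Rpl11 +/- footprints (229 of 16217) and 2 in R98S footprints (728 of 16217). It called 3 in P131S footprints (3362 of 16217), with Gas5 added. In P131S against H137Y RNA it called 3 (3416 of 12814), with Snhg5 added. Without the filter 1 host was called between P131S and H137Y in RNA and 1 in footprints. With the clone as replicate block 1 host was called in the ratio of R98S (Gas5, log2 -0.89, adjusted p = 0.0211), where 78 of 16568 genes were. The block changed no other count of calls.

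With each clone left out in turn, hosts called in RNA ranged from 0 to 3 in both Rpl5 +/- and R98S, from 0 to 4 in Rpl11 +/-, 2 to 7 in P131S, 3 to 8 in H137Y, 1 to 3 in P131S against H137Y and 3 to 8 for any difference. The upper ends came without Rps15 H137Y clone 6. In that fit 3.35% of all genes were called in Rpl5 +/-, 17.4% in R98S, 16.6% in Rpl11 +/- and 50.1% in P131S. The share was 41.4% in H137Y, 27.8% in P131S against H137Y and 69.6% for any difference. In footprints the ranges were 0 to 1 in Rpl11 +/-, 0 to 1 in R98S and 0 to 2 in P131S against H137Y. The call in Rpl11 +/- came without Rpl11 +/- clone 414, where 186 of 17076 genes were called. Shares of all genes for the other counts under alternatives are not reported here. For any difference in the ratio the range was 0 to 1, the lower end without R98S clone A30 or A34. RNA pairs with r above 0.5 went from 29 to 17 without H137Y clone 6. The cause of these moves was not tested, except that a fit of 2 genotypes estimates the spread from 6 clones. Depth limits Snhg6, with 0 to 3.27 footprint CPM.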

Other observations

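The proteins that bind snoRNAs are coded by 8 genes of a fixed list: Fbl, Nop56, Nop58 and Snu13 for box C/D particles and Dkc1, Nhp2, Nop10 and Gar1 for box H/ACA particles. Nop56, Nop58 and Dkc1 are also among the 31 protein-coding snoRNA hosts, so their calls are counted in both lists. In P131S RNA, where 47% of all genes were called, all 8 rose against WT, and the 4 with the smallest p were Snu13 (log2 change 0.73, edgeR adjusted p = 1.3e-05), Nop10 (0.71, adjusted p = 2.0e-05), Nop58 (0.71, adjusted p = 0.000107) and Gar1 (0.52, adjusted p = 0.00012). In H137Y (41% of all genes called) 3 rose (Nop10 by 0.46, Nop58 by 0.43 and Dkc1 by 0.50), in Rpl11 +/- (11.8%) 3 rose (Dkc1 by 0.55, Nop58 by 0.51 and Snu13 by 0.33), in R98S (12.9%) 1 rose (Dkc1 by 0.71), and none was called in Rpl5 +/- or either Rpl22 genotype. In P131S footprints (16.7% of all genes called) 6 of the 8 rose, Nop10 most (1.80, adjusted p = 7.7e-05). Nop10 was the only one of the 8 whose ratio passed in any comparison with WT, in P131S (1.07, adjusted p = 0.0155), where 3.14% of all genes were called.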
